A study of Homo sapiens with 24 samples.

Results

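WNT signalling genes were followed in the human medulloblastoma line D425, an established cell line, while a doxycycline-inducible short hairpin RNA was directed against OTX2. OTX2 is a homeobox gene of brain and eye development that is highly expressed in many medulloblastomas. The genes were chosen by symbol: all probe sets of the array that the platform annotation gives to a single gene among the WNT ligands, the R-spondins (RSPO), the receptors (FZD, LRP5, LRP6, LGR4 to LGR6), the secreted antagonists (SFRP, FRZB, DKK), the cytoplasmic components (DVL, AXIN1, APC, CTNNB1, GSK3B), the negative feedback genes (AXIN2, RNF43, ZNRF3, NKD1, NKD2) and the TCF/LEF factors. This gave 61 of 19775 genes with a probe set of their own, and 132 of 54675 probe sets. The symbol rule also took in the antisense gene FZD10-AS1 and the divergent transcript FZD4-DT, and it left out FZD8 and WNT3, whose probe sets carry a second symbol in the annotation. The line with the hairpin, labelled shOTX2, was sampled at 0, 8, 16, 24, 48 and 96 h after doxycycline in 3 independent time courses (18 arrays), and a control line was sampled in 1 course at the same times (6 arrays). Both lines were grown in MEM with fetal calf serum and plated before doxycycline was added. The labels call the second line only a control, and they do not say whether it carries a hairpin of its own or whether the lines are clones.

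A WNT ligand binds a Frizzled receptor (FZD) together with the co-receptor LRP5 or LRP6. In the canonical branch this stops a complex of AXIN1, APC, GSK3B and casein kinase from marking beta-catenin (CTNNB1) for destruction, and beta-catenin then works with TCF/LEF factors on target genes. Among those targets are the brakes of the pathway itself, such as AXIN2 and ZNRF3. ZNRF3 and RNF43 remove Frizzled receptors from the cell surface, and R-spondins bound to LGR4, LGR5 or LGR6 hold these enzymes back. Non-canonical ligands such as WNT5A act through Frizzled and other receptors on cell shape and polarity, and active canonical signalling defines a separate subgroup of medulloblastoma.

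A single MAS5 signal intensity, a linear value with each array scaled to the same trimmed mean, was read per probe set. Array medians lay between 16.3 and 20.6, and a probe set was tested when it exceeded the array median on at least 3 arrays. This kept 33803 probe sets, among them 79 of the 132 WNT probe sets, for 42 of the 61 genes. Changes are on the scale of log2(signal + 16) and were tested with limma across all kept probe sets, and a change counts as called at a Benjamini-Hochberg adjusted p under 0.05. The replicates are the 3 courses, and the control groups hold 1 array each. Signals of different probe sets cannot be set against each other as levels of their genes. In these bulk samples, fewer cells of a type and less RNA per cell cannot be told apart.

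OTX2 itself read 4188 ± 302 at 96 h, against 4659 ± 217 at 0 h in the shOTX2 arm (SD, n = 3 each), on its brighter probe set, and 3295 ± 275 against 3027 ± 155 on the other; neither change was called (limma, adjusted p = 0.19 and 0.377), but with the course as a block the first was (-0.15 on the log2 scale, limma adjusted p = 0.0379). Over 48 and 96 h against 0 and 8 h in the shOTX2 arm, the dimmer probe set was higher by 0.21 (limma adjusted p = 0.0213). The positions of hairpin and probes are not stated in the sources used here, and OTX2 signal therefore checks nothing about the labels. OTX2, MYC, CRX, NRL and IMPG2, markers of group 3 medulloblastoma, passed the filter, while NPR3, the other listed marker, did not. The summed signal of these 5 was 9227 to 9724 on the shOTX2 arrays at 96 h, against 11788 to 13153 at 0 h, and 15569 against 13474 in the control course. The 5 did not move alike. At 96 h MYC changed by -0.71 and IMPG2 by -0.82 on their brightest probe sets (limma adjusted p = 6.66e-05 and 0.00059). CRX changed by 1.24 (limma adjusted p = 8.48e-05) and NRL by 0.81 (not called). Their second probe sets changed by 0.24 and -0.33, neither called. Without a kept probe set were 3 of 4 endothelial markers (CDH5, CLDN5, VWF) and 3 of 4 immune markers (CD14, LYZ, PTPRC). The summed signal of 4 proliferation markers was 1126 to 1640 on the shOTX2 arrays at 96 h, against 6976 to 7243 at 0 h, and 3369 against 6751 in the control course. That of 6 neuronal markers was 6565 to 7135 at 96 h, against 4003 to 5161 at 0 h, and 3776 against 4321 in the control course. On the brightest probe sets TUBB3 changed by -0.27 at 96 h (not called), while the other neuronal markers rose. The 5 kept fibroblast markers summed to 179 to 323 at 96 h, against 71.3 to 115 at 0 h, and to 63.5 against 109 in the control course. Among them COL1A2, COL3A1 and PDGFRB rose by 0.83, 2.04 and 1.51 on their brightest probe sets. DCN and FBN1 changed by -0.14 and -0.12, neither called. The 2 kept glial markers summed to 34.7 to 52.5 at 96 h, against 17.5 to 24.2 at 0 h, and to 61.6 against 22.5 in the control course. The part of these shifts in the WNT results was not tested. The actin 3'/5' ratio, which reflects RNA integrity and labelling, averaged 1.42 in course 1, 2.07 in course 2, 1.91 in course 3 and 1.40 in the control course.

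Promoter sequences are shown for the genes with the largest rise and the largest fall at 96 h, FZD1 and FZD5, for LGR4, the R-spondin receptor gene that rose, and for APC, the only gene with a called change whose promoter held an OTX-type motif. They are the 250 bases before the start site, 5′ to 3′ on the gene's strand, from RefSeq on GRCh38.p14. Capitals mark CG dinucleotides in FZD1, FZD5 and LGR4, and the motif TAATCC in APC.
FZD1 (chr7:91264183-91264432, plus strand): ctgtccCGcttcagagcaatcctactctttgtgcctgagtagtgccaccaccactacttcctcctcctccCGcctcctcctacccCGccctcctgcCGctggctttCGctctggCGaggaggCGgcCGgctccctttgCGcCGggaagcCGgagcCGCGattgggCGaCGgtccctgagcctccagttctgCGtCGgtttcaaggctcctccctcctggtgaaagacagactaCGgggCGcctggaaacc
FZD5 (chr2:207769907-207770156, minus strand): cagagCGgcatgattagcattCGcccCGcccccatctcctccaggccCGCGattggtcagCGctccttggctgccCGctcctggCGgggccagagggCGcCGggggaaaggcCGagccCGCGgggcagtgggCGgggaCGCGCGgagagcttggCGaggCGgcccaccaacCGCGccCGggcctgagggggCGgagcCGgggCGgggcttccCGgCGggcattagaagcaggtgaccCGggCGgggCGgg
LGR4 (chr11:27472791-27473040, minus strand): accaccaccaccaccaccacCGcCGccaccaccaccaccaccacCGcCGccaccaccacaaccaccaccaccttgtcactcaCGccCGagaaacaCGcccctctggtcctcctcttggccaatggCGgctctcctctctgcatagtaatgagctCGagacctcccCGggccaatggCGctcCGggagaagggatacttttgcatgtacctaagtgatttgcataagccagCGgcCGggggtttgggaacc
APC (chr5:112737635-112737884, plus strand): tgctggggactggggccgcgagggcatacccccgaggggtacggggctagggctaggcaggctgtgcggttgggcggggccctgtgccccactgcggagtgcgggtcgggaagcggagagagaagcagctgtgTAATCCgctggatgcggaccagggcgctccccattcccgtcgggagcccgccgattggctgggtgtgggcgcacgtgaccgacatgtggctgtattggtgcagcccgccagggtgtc
Of the 61 genes, 42 had an entry among the 35116 promoters of that table, with 51 promoters in all. The window searched ran from 250 bases before to 50 bases after the start, on both strands. TAATCC, the core bound by OTX2 and its relative CRX, was in 4 of the 51 promoters (7.84%), those of APC, LGR6, SFRP2 and WNT5B, and in 6.36% of all promoters. In the APC promoter shown it began 117 bases before the start, while another listed APC promoter (chr5:112707248-112707497) did not hold it. CTTTGAT, a core of TCF/LEF sites, was in 0 of the 51 and in 2.62% of all promoters. The member promoters had a median of 25 CG dinucleotides and 67.0% G and C in this window, against 14 and 58.7% over all promoters. These matches describe the letters in this window only.

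By 96 h the WNT receptor genes of the shOTX2 arm had moved in opposite directions. FZD1, FZD2, FZD7 and LGR4 were higher on every kept probe set, while FZD5, FZD10 and FZD6 were lower on their brightest. GSK3B, TCF7L2 and ZNRF3 were also higher, as was AXIN2 on its brighter kept probe set. limma called 32 of the 79 kept probe sets at 96 h against 0 h, of 16 genes, where 36.8% of all 33803 probe sets were called, so the share among the WNT probe sets, 40.5%, was near the background. By probe set the split was less near it: 29 were higher and 3 lower, against 20% higher and 16.8% lower over all probe sets. Probe sets of 1 gene are not independent, and the 29 include 5 of TCF7L2, 4 of GSK3B, 3 of FZD1 and 3 of WNT2B. The 3 lower ones belong to 3 genes. With 1 probe set a gene, the share of WNT genes called was below that of all genes. Each of the 32 called probe sets had a single sign across the 3 courses, which is likely for any probe set called on these same courses. The median log2 change was 0.36 over the WNT probe sets and 0.051 over all tested. With each array centred on its median, which moved the median of all probe sets to -0.068 and the share of higher calls among all calls to 43.0%, against 54.3% as deposited, 20 WNT probe sets were called higher and 4 lower. Without course 2 the calls numbered 15.

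**Figure D1:**
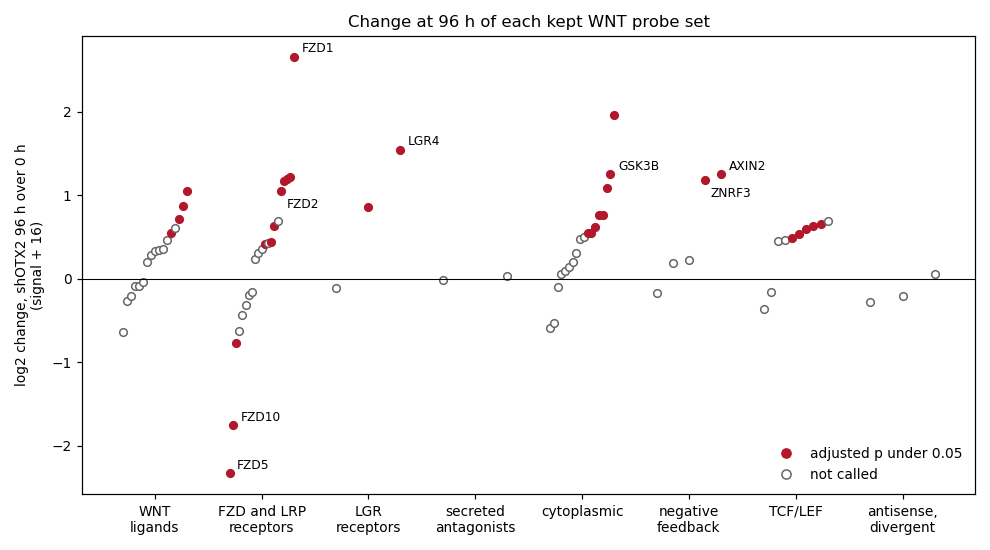
Log2 change (signal + 16) of the shOTX2 arrays at 96 h over 0 h for each of the 79 kept WNT probe sets, by the role of the gene; filled points had an adjusted p under 0.05 in limma, and labels name genes whose brightest probe set was called with a change over 1 in size. The 3 called falls, FZD5, FZD10 and FZD6, all lie among the receptors.

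The calls built up late. At 8 h limma called 0 of the 79 probe sets, with 2 at an unadjusted p under 0.05, and 0.00% of all probe sets; with the course as a block it was also 0 of the 79. At 16 h there was 1, FZD5, which was lower (0.580% of all probe sets called, 0.376% higher and 0.204% lower), and none without course 2 or without course 3. At 24 h there were 3, of FZD5, FZD7 and LGR4 (3.54% of all called, 2.06% higher and 1.48% lower), 5 with the course as a block, which added FZD10 and the second probe set of FZD7, and none without course 2. At 48 h there were 25, 18 higher and 7 lower, of 14 genes (26.5% of all called, 14.2% higher and 12.3% lower). The count was 14 without course 2, 10 without course 3 and 16 with median centring. Of these 25, 19 were called with the same sign at 96 h, and 6, of FZD4, FZD5, LEF1, LRP5 and WNT5A, were not called then. A further 13 were called at 96 h and not at 48 h. Both comparisons use the same 0 h arrays, and this overlap was not counted over all probe sets.

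Among the Frizzled genes FZD1 had the largest rise. Here and for the genes that follow, signals are given in the order 0, 8, 16, 24, 48 and 96 h, for the brightest kept probe set of the gene unless another is named. FZD1 read 145, 163, 97.9, 137, 437 and 877 in course 1, 95.6, 119, 90.3, 91.7, 396 and 722 in course 2, and 87.1, 108, 96.4, 90.0, 570.2 and 689 in course 3. Control arrays gave 98.6, 111, 106, 83.0, 64.1 and 79.3. The gene stayed near its starting signal through 24 h on the shOTX2 arrays, and all 6 arrays at 48 and 96 h lay above every earlier array and every control array. The mean was 763 ± 100.4 at 96 h, against 109 ± 31.0 at 0 h (SD, n = 3 each), a log2 change of 2.66 (SE 0.20, limma adjusted p = 9.71e-09). The other 2 kept probe sets of FZD1 were also called, with changes of 1.22 and 1.2. FZD1 and FZD7 belong, with FZD2, to a closely related group of Frizzled receptors that take canonical ligands.

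FZD2 read 188, 171, 209, 269, 119 and 331 in course 1, 112, 135, 180.4, 193, 220.4 and 306 in course 2, and 119, 171, 175, 191, 239 and 264 in course 3. In the control course it read 186, 187, 196, 194, 169.6 and 173. All 3 arrays at 96 h were above the 3 at 0 h, but at 48 h course 1 was below its own start while courses 2 and 3 were above theirs. The mean was 300.1 ± 33.9 at 96 h, against 139.6 ± 42.1 at 0 h (SD, n = 3 each), a change of 1.05 (SE 0.22, limma adjusted p = 0.000938, 0.0561 without course 2), and the second probe set changed by 1.17. FZD7 read 495, 695, 636, 732, 652 and 666 in course 1, 471, 589.5, 592, 904, 705 and 716 in course 2, and 591, 643, 514, 635, 729.5 and 698 in course 3. Signals in the control course were 419.7, 451, 362, 296, 303 and 316. FZD7 was higher at 24 h than at 0 h in each shOTX2 course and higher at 96 h than at 0 h, and all 6 control arrays lay below every shOTX2 array. The mean was 693 ± 25.2 at 96 h, against 519 ± 63.7 at 0 h (SD, n = 3 each), a change of 0.41 (SE 0.13, limma adjusted p = 0.0154). Leaving out course 2 ended that call (adjusted p = 0.176), as did median centring (0.076). The second FZD7 probe set changed by 0.63 (limma adjusted p = 0.0143).

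FZD5, a Frizzled known for its part in the developing eye, had the earliest call and the largest fall. It read 1347, 1449.5, 1025, 892, 571 and 259 in course 1, 1527, 1507, 938, 829, 453 and 272 in course 2, and 1574, 1541, 1031, 903, 463 and 316 in course 3. The control course read 1354, 1209, 1035, 979, 1039 and 859.5. From 16 h on every shOTX2 array was below every shOTX2 array of 0 and 8 h, and from 48 h on also below every control array. The mean was 282 ± 30.2 at 96 h, against 1482 ± 120.0 at 0 h (SD, n = 3 each), a change of -2.33 (SE 0.10, limma adjusted p = 4.05e-11). The control course itself had less at 96 h than at 0 h. It was also lower at 16 and 24 h, with 1035 and 979 against 1354 at 0 h. The difference between the arms was not tested at 16 or 24 h, so the early call is not particular to the shOTX2 arm by any test here. The second, dim FZD5 probe set changed by -0.63 at 96 h (adjusted p = 0.0948, 0.0294 with the course as a block) and by -1.31 at 48 h (limma adjusted p = 0.002).

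FZD10 read 179, 192, 156, 113, 68.4 and 30.5 in course 1, 191, 149, 124, 107, 62.2 and 45.0 in course 2, and 169, 142, 196, 147, 61.4 and 52.7 in course 3. Control arrays gave 202, 151, 172, 189, 146 and 319.7. Every shOTX2 array at 48 and 96 h was below every earlier shOTX2 array and below every control array, and the control array at 96 h was the highest of all 24. The mean was 42.7 ± 11.3 at 96 h, against 179.7 ± 10.7 at 0 h (SD, n = 3 each), a change of -1.75 (SE 0.17, limma adjusted p = 3.37e-07). The 2 probe sets of FZD10-AS1 were not called, with changes of -0.20 and 0.052, nor was that of FZD4-DT (-0.27). FZD6, which is tied to planar cell polarity, read 377, 433, 312, 281, 312 and 204 in course 1, 337, 331, 299, 325, 273 and 202 in course 2, and 369, 361, 385, 347, 252 and 206 in course 3. In the control course it read 309.8, 294, 373, 357, 319 and 412. All 3 shOTX2 arrays at 96 h were below every other array of the series. The mean was 204 ± 1.56 at 96 h, against 361 ± 21.2 at 0 h (SD, n = 3 each), a change of -0.77 (SE 0.13, limma adjusted p = 9.04e-05).

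**Figure D2:**
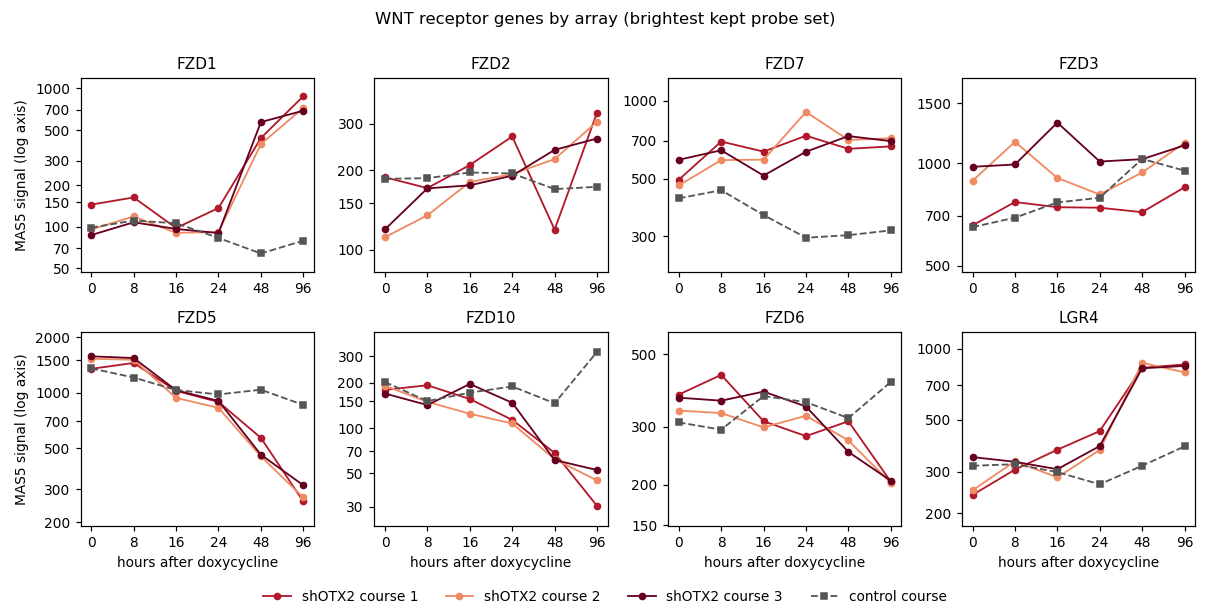
MAS5 signal (log axis, set for each gene) of 8 receptor genes at 0 to 96 h after doxycycline (times evenly spaced), 1 point per array, with a solid line for each shOTX2 course and a dashed line for the control course. FZD1 and LGR4 leave the control course upwards by 48 h, and FZD5, FZD10 and FZD6 lie below it at 96 h.

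FZD3, a Frizzled of axon guidance, was measured by 4 kept probe sets that did not move alike. The brightest read 656, 768, 742, 739, 717 and 849 in course 1, 887, 1154, 904, 808, 938 and 1147 in course 2, and 975, 990.0, 1314, 1010.1, 1026 and 1127 in course 3. Signals in the control course were 648, 691, 766, 791, 1028 and 949.9. Arrays of 96 h and 0 h overlapped, and the control course was also higher late than early. The mean was 1041 ± 167 at 96 h, against 839 ± 164 at 0 h (SD, n = 3 each), a change of 0.31 (adjusted p = 0.277), which passed with the course as a block (limma adjusted p = 0.0143). Of the other probe sets, one rose by 0.44 (limma adjusted p = 0.0111), and the remaining changes were 0.43 and -0.16, not called. FZD4 was called lower at 48 h only, with a change of -1.05 (limma adjusted p = 0.00548) and of -0.31 at 96 h. Its signal at 48 h was 21.1, 5.40 and 40.4 in courses 1 to 3, against 67.1, 55.3 and 51.0 at 0 h, so the courses were far apart.

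Neither co-receptor was called at 96 h. LRP6 read 345, 343 and 315 at 96 h, against 260.3, 264 and 324 at 0 h, in courses 1 to 3 on its brightest probe set, and 349 against 251 in the control course. The change of 0.24 was not called (adjusted p = 0.201), and its 3 kept probe sets differed in sign, between -0.19 and 0.36. LRP5 read 106, 31.8 and 30.1 at 96 h, against 46.8, 14.4 and 17.8 at 0 h. The change of 0.69 (adjusted p = 0.263) passed with the course as a block (limma adjusted p = 0.00194), and the second LRP5 probe set changed by -0.43 at 96 h (not called) and by -0.62 at 48 h (limma adjusted p = 0.0448). FZD9, the remaining Frizzled of the list, did not pass the filter, with signals of at most 20.2.

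LGR4, which encodes a receptor for R-spondins, rose by 24 h and reached its late signal at 48 h. It read 239, 306, 372, 447, 831 and 859 in course 1, 249.9, 332, 284, 371, 872 and 795 in course 2, and 346, 331, 307, 386, 827 and 846 in course 3. The control course read 318, 323, 299, 265, 318 and 385. The 6 late shOTX2 arrays lay above all other arrays of the series. The mean was 833 ± 33.9 at 96 h, against 278 ± 59.0 at 0 h (SD, n = 3 each), a change of 1.55 (SE 0.13, limma adjusted p = 4.45e-08), and the second, dim probe set rose by 0.86. LGR6 was measured by 1 kept probe set that read 10.0 to 50 over the 24 arrays and changed by -0.11 (not called). LGR5, a textbook marker of WNT-driven stem cells, stayed below the filter, and its 2 probe sets never read above 12.6. The R-spondins RSPO1 to RSPO4, the ligands of these receptors, had no kept probe set either, and no signal above 15.1.

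WNT5A, the prototype of the non-canonical ligands, was the only ligand called between the arms. It read 122, 90.3, 104, 139, 240.4 and 139.7 in course 1, 147, 144, 116, 156, 211 and 196 in course 2, and 130.0, 132, 147, 124, 223 and 191 in course 3. Control arrays gave 87.9, 63.4, 81.0, 60.4, 51.6 and 72.9. Each course was highest at 48 h, and the 3 arrays of 48 h lay above all others, while every control array was below every shOTX2 array. The mean was 225 ± 14.8 at 48 h, against 133.2 ± 12.7 at 0 h (SD, n = 3 each), a change of 0.69 (SE 0.17, limma adjusted p = 0.00505). At 96 h it was 175 ± 31.0, a change of 0.35 that was not called (adjusted p = 0.122, 0.0441 with the course as a block and 0.033 without course 1). The second probe set changed by 0.66 at 48 h (limma adjusted p = 0.029) and by 0.47 at 96 h (adjusted p = 0.101).

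WNT2B and WNT9A were called higher at 96 h, both at signals close to background. WNT2B read 12.2, 9.4, 14.9, 15.2, 20.8 and 31.1 in course 1, 20.3, 22.0, 35.4, 28.6, 26.4 and 61.5 in course 2, and 19.8, 15.8, 19.8, 28.0, 40.6 and 45.3 in course 3. In the control course it read 13.1, 21.5, 19.2, 13.7, 22.8 and 24.3. The 3 arrays at 96 h were above all 3 at 0 h, with a mean of 46.0 ± 15.2 at 96 h, against 17.4 ± 4.54 at 0 h (SD, n = 3 each), and a change of 0.87 (SE 0.25, limma adjusted p = 0.00931). Its other 2 kept probe sets changed by 1.05 and 0.55, both called, and the brightest lost its call without course 2 (adjusted p = 0.0884) and without course 3 (0.0808). All 3 were also higher at 96 h than at 0 h in the control course, by 0.30 to 0.47, and none was called between the arms. WNT9A read 6.2, 19.6, 6.8, 19.4, 12.5 and 27.6 in course 1, 4.7, 8.1, 11.1, 15.7, 13.2 and 16.1 in course 2, and 4.9, 2.2, 9.0, 1.8, 15.5 and 14.6 in course 3. Signals in the control course were 8.9, 15.7, 12.2, 5.5, 1.4 and 7.6. The 3 arrays at 96 h were above those at 0 h, but course 1 already read 19.6 at 8 h and 19.4 at 24 h. The mean was 19.4 ± 7.11 at 96 h, against 5.27 ± 0.814 at 0 h (SD, n = 3 each), a change of 0.72 (SE 0.26, limma adjusted p = 0.0358). Leaving out course 1 or course 2 ended that call (adjusted p = 0.133 and 0.19), as did median centring (0.0786) and quantile normalization (0.0715).

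The other kept ligand genes, WNT2, WNT5B, WNT6, WNT7A, WNT7B, WNT8A, WNT10A, WNT10B and WNT16, were not called at any time against 0 h. A dim probe set of WNT6 was higher over the late than over the early shOTX2 arrays, by 0.64 (limma adjusted p = 0.0242). Among these genes WNT10B reached 88.6, in the control course at 24 h, and read 8.80, 18.7 and 23.8 on the shOTX2 arrays at 96 h, against 57.6, 31.1 and 21.4 at 0 h. Courses 1 and 2 were lower at 96 h and course 3 was not, and the change of -0.64 was not called (adjusted p = 0.152). The remaining 8 of these genes did not exceed 45.8 on any array. WNT1, WNT4, WNT8B, WNT9B and WNT11 had no kept probe set, with signals of at most 13.8.

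Few secreted antagonists rose above the array median. Of 9 genes, SFRP1 and SFRP4 had 1 kept probe set each, with signals of 4.70 to 22.8 and 5.30 to 22.2 and changes at 96 h of -0.010 and 0.028, not called. SFRP2, SFRP5, FRZB, DKK1, DKK2, DKK3 and DKK4 had none, and their highest single signal was 25.5, of DKK1, a secreted LRP5/6 blocker that WNT signalling itself induces in many tissues.

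Inside the cell, GSK3B, the kinase that marks beta-catenin, was higher on all 4 of its kept probe sets. The brightest read 411, 374, 407, 461, 721 and 988 in course 1, 360.4, 349, 443, 409.7, 608 and 867 in course 2, and 349.5, 392, 422, 412, 716 and 881 in course 3. The control course read 369, 357, 421, 419, 381 and 474. The 6 late shOTX2 arrays lay above all other arrays. The mean was 912 ± 65.9 at 96 h, against 374 ± 33.0 at 0 h (SD, n = 3 each), a change of 1.25 (SE 0.10, limma adjusted p = 3.48e-08). The probe sets differed in size, with changes between 0.62 and 1.96, the largest on a probe set that read 480.2, 416 and 362 at 96 h, against 105, 100 and 83.1 at 0 h. That probe set also had 118 at 96 h and 50 at 0 h in the control course.

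APC, the scaffold of the destruction complex, read 201, 195, 191, 251, 290.2 and 335 in course 1, 264, 294, 257, 287, 407 and 399 in course 2, and 266, 295, 282, 251, 345 and 347 in course 3. Control arrays gave 249, 250.2, 201, 191, 217 and 302. Courses 2 and 3 started higher than course 1, and each course was higher at 96 h than at 0 h. The mean was 360.4 ± 33.7 at 96 h, against 244 ± 37.4 at 0 h (SD, n = 3 each), a change of 0.54 (SE 0.18, limma adjusted p = 0.0208). Leaving out course 2 or course 3 ended the call (adjusted p = 0.141 and 0.0862), as did median centring (0.0588). All 5 kept APC probe sets had positive changes, between 0.20 and 0.55, and 2 were called. AXIN1, the other scaffold, scattered between 2.30 and 68.5 on the shOTX2 arrays and was not called, with a change of -0.58 at 96 h (adjusted p = 0.45).

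CTNNB1, which encodes beta-catenin, did not differ detectably on its brightest probe set. It read 1160.2, 1269.6, 1106, 1145, 1287 and 1163 in course 1, 1063, 1147, 1327, 1220.2, 1228 and 1403 in course 2, and 1404, 1286, 1257, 1119.7, 1399 and 1295 in course 3. In the control course it read 986, 1238, 1019, 925, 737 and 1131. The mean was 1287 ± 120.2 at 96 h, against 1209 ± 176 at 0 h (SD, n = 3 each), and the change of 0.094 (adjusted p = 0.548) was positive in course 2, near 0 in course 1 and negative in course 3. It was -0.024 with median centring and -0.056 without course 2. Both other probe sets of CTNNB1 rose. One read 171, 129 and 123 at 96 h, against 59.2, 49.1 and 64.7 at 0 h, a change of 1.09 (SE 0.18, limma adjusted p = 8.84e-05), and the other changed by 0.76 (SE 0.26, limma adjusted p = 0.0299). The parts of the transcript that these probe sets read are not named in the annotation used.

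The Dishevelled genes pass the signal from the receptors. DVL1 changed by 0.15, DVL2 by 0.062 and DVL3 by 0.50 at 96 h on their brightest probe sets, and none was called (adjusted p from 0.114 to 0.836). DVL3 read 568, 351 and 352 at 96 h, against 384, 268 and 229.5 at 0 h, higher in each course, and passed with the course as a block (limma adjusted p = 0.00055). The kept probe sets of DVL2 and DVL3 differed in sign.

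Of the feedback genes, ZNRF3 rose, and AXIN2 rose later, on 1 of its 2 kept probe sets. ZNRF3 read 233, 237, 262, 309.9, 332 and 519.9 in course 1, 191, 221, 257, 312, 454 and 512 in course 2, and 225, 249.5, 234, 242, 497 and 496 in course 3. Signals in the control course were 208, 245, 253, 266, 178 and 240.2. All 6 late shOTX2 arrays lay above all other arrays. The mean was 509 ± 12.1 at 96 h, against 216 ± 22.5 at 0 h (SD, n = 3 each), a change of 1.18 (SE 0.14, limma adjusted p = 2.47e-06), and 0.92 at 48 h (limma adjusted p = 7.44e-05). AXIN2, the most widely used readout of canonical signalling, read 26.5, 21.3, 29.2, 32.7, 17.5 and 91.3 in course 1, 34.5, 22.7, 26.7, 26.4, 35.0 and 89.1 in course 2, and 31.6, 33.0, 31.5, 16.0, 57.7 and 106 in course 3. The control course read 28.6, 24.4, 43.6, 36.0, 27.4 and 40.5. Through 48 h only 1 array, that of course 3 at 48 h, stood above the rest, and at 96 h all 3 were above every other array. The mean was 95.6 ± 9.36 at 96 h, against 30.9 ± 4.05 at 0 h (SD, n = 3 each), a change of 1.25 (SE 0.23, limma adjusted p = 0.000272). The second kept AXIN2 probe set, at signals of 4.20 to 39.0 on the shOTX2 arrays, changed by 0.18 (adjusted p = 0.663). The remaining AXIN2 probe sets did not pass the filter, with highest signals of 18.6 and 12.1.

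NKD1 and NKD2, inhibitors that bind Dishevelled, stayed near background. NKD1 read 6.7, 13.9, 13.4, 15.8, 27.1 and 11.7 in course 1, 17.3, 10.4, 24.2, 30.6, 31.9 and 7.8 in course 2, and 20.4, 16.1, 22.1, 14.1, 20.6 and 13.5 in course 3. Control arrays gave 4.1, 26.0, 9.2, 17.4, 21.0 and 16.7. Its arrays of 96 h and 0 h overlapped, with a change of -0.17 (adjusted p = 0.603), and that of NKD2 was 0.22 (adjusted p = 0.641). RNF43, which acts like ZNRF3, had no kept probe set and a highest signal of 13.7.

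Among the TCF/LEF factors TCF7L2 rose and LEF1 did not. TCF7L2 read 519, 570.0, 554, 645, 844 and 953 in course 1, 802, 791, 786, 945, 1063 and 1299.7 in course 2, and 838, 747, 856, 902, 1090.1 and 1126 in course 3. In the control course it read 659, 632, 619, 623, 507 and 868. Course 1 ran below the others at every time, and within each course 96 h was the highest array. The mean was 1126 ± 173 at 96 h, against 719.8 ± 174 at 0 h (SD, n = 3 each), a change of 0.65 (SE 0.20, limma adjusted p = 0.0169). That call was lost without course 2 (adjusted p = 0.133) and without course 3 (0.0683), while 7 of 7 kept probe sets had positive changes, between 0.45 and 0.69, and 5 were called. Of these 7, the array maker's suffixes mark 2 as possibly matching unrelated transcripts and 3 as shared between transcripts.

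LEF1, a WNT target and factor in one, read 158, 164, 149, 136, 69.5 and 103 in course 1, 98.9, 111, 109, 123, 77.1 and 69.8 in course 2, and 94.6, 126, 95.2, 91.8, 67.8 and 86.7 in course 3. Signals in the control course were 99.0, 98.5, 110.2, 94.0, 123 and 93.7. The 3 arrays of 48 h were below every array of 0 to 24 h, with a mean of 71.5 ± 4.95 at 48 h, against 117 ± 35.5 at 0 h (SD, n = 3 each), and a change of -0.58 (SE 0.20, limma adjusted p = 0.0446). At 96 h the change was -0.36 (adjusted p = 0.192, 0.0411 with the course as a block). TCF7L1 changed by 0.47 at 96 h (adjusted p = 0.101, 0.000828 with the block).

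**Figure D3:**
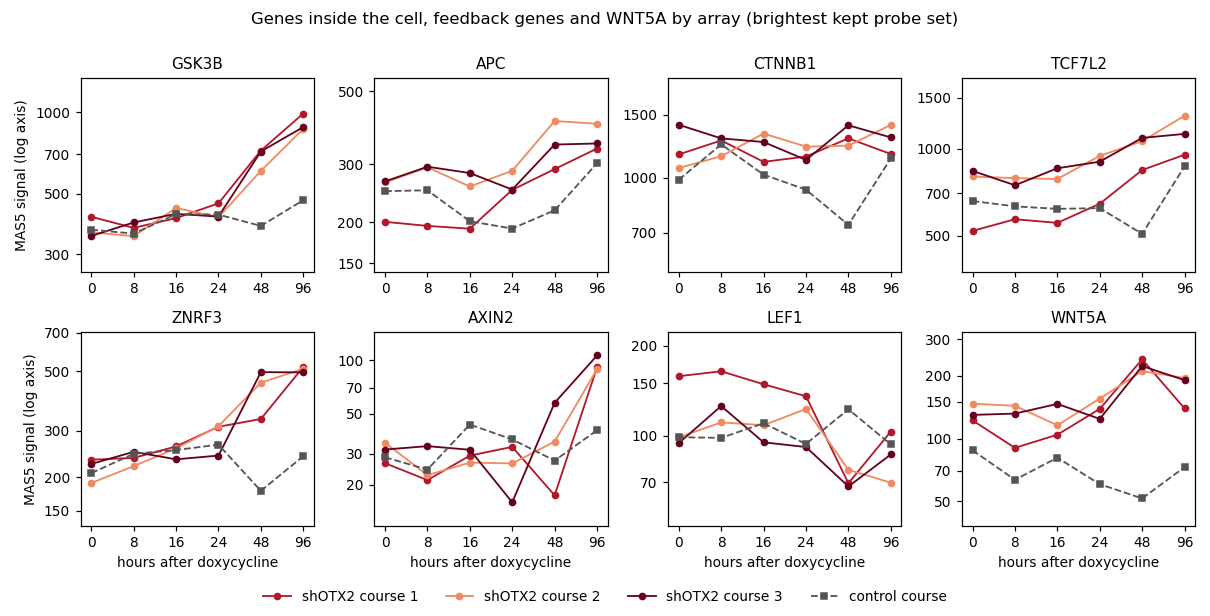
MAS5 signal (log axis, set for each gene) of GSK3B, APC, CTNNB1, TCF7L2, ZNRF3, AXIN2, LEF1 and WNT5A at 0 to 96 h (times evenly spaced), 1 point per array, with a solid line for each shOTX2 course and a dashed line for the control course. GSK3B and ZNRF3 leave the control course by 48 h, AXIN2 at 96 h, and CTNNB1 stays within its starting range on the shOTX2 arrays.

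The control course was used to ask which of these changes differ from time in culture with doxycycline. Late arrays (48 and 96 h) were set against early ones (0 and 8 h) in each arm, 12 arrays in the shOTX2 arm and 4 in the control course. In the shOTX2 arm 40 of the 79 probe sets were called, 33 higher and 7 lower, where 43.1% of all were, 23.9% higher and 19.2% lower. In the control course limma called 0 of the 79 probe sets (0.00% of all probe sets called), with 8 at an unadjusted p under 0.05, and 1 with the course as a block, FZD3. The difference between the arms was called for 15 of the 79 probe sets, 12 higher and 3 lower in the shOTX2 arm, of 11 genes. Over all probe sets 16.1% were called, 8.36% higher and 7.78% lower, so the share, 19.0%, was again near the background. The count was 27 with the course as a block, and 8 without course 2. All 15 but that of WNT5A were also called at 96 h against 0 h in the shOTX2 arm. These tests share the shOTX2 arrays of 0 and 96 h, and the overlap was not counted over all probe sets.

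FZD1 changed by 2.20 from early to late in the shOTX2 arm and by -0.46 in the control course, a difference of 2.66 (SE 0.28, limma adjusted p = 5.7e-06). FZD10 differed by -1.74 (limma adjusted p = 0.00011) and FZD5 by -1.52 (limma adjusted p = 2.83e-06), the second with changes of -1.95 in the shOTX2 arm and -0.43 in the control course. LGR4 differed by 1.32, ZNRF3 by 1.11 and GSK3B by 0.83 (limma adjusted p from 9.21e-05 to 0.000778). For each of these 6 genes the difference was larger than 5 times its SE.

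FZD6 differed by -0.84 and FZD7 by 0.74 (limma adjusted p = 0.00327 and 0.00841). FZD7 combined a rise of 0.26 in the shOTX2 arm with a change of -0.47 in the control course, and its difference lost its call without course 2 (adjusted p = 0.0633). WNT5A differed by 0.82 (limma adjusted p = 0.0263), which was lost without course 2 (0.084) and without course 3 (0.108). For AXIN2 the difference was 0.54 (adjusted p = 0.303) and for FZD2 0.74 (adjusted p = 0.124, but 0.000508 without course 1), and neither was called. This comparison pools 48 and 96 h. At 96 h alone, where the difference between the arms was not tested, AXIN2 changed by 1.34, 1.06 and 1.36 in the shOTX2 courses and by 0.34 in the control course. On the brightest probe sets, the differences called only with the course as a block were those of TCF7L2 (0.54, limma adjusted p = 0.243 without and 0.00128 with it), LEF1 (-0.66, 0.138 and 0.0154), APC (0.43, 0.277 and 0.0358), WNT9A (0.96, 0.0862 and 0.0405), CTNNB1 (0.36, 0.132 and 0.0442), DVL3 (0.54, 0.33 and 0.0108), FZD4 (-0.89, 0.116 and 0.0485) and FZD3 (-0.45, 0.359 and 0.0208). Without course 1 the differences of TCF7L2 (adjusted p = 0.013) and WNT9A (0.0496) were called as well. A dimmer probe set of TCF7L2 and one of CTNNB1 were among the 15 called, with differences of 0.67 and 0.75 (limma adjusted p = 0.0115 and 0.0488). That of TCF7L2 is one of those marked as possibly matching unrelated transcripts.

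**Figure D4:**
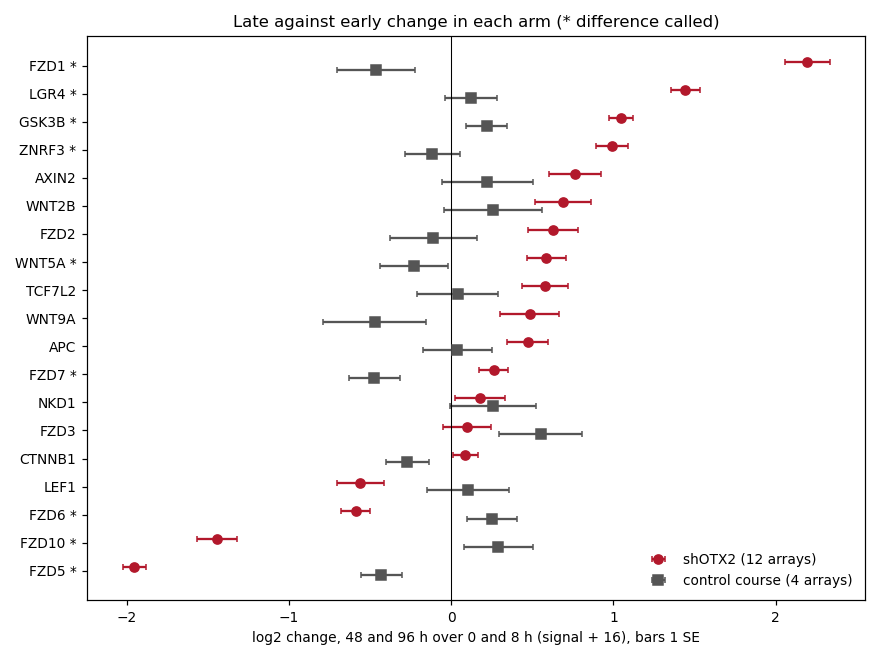
Log2 change (signal + 16) from the early (0 and 8 h) to the late arrays (48 and 96 h) for the brightest kept probe set of 19 WNT genes, with 1 SE from limma; red circles are the shOTX2 arm, grey squares the control course, and an asterisk marks a difference between the arms with an adjusted p under 0.05. FZD1 has the largest positive and FZD10 the largest negative difference among these genes.

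The lines were also compared before the late changes. At 0 and 8 h together, 6 shOTX2 arrays against 2 control arrays, limma called 0 of the 79 probe sets, with 10 at an unadjusted p under 0.05, while 1.95% of all probe sets were called, 1.27% higher and 0.674% lower. The fit took arrays of the same course as independent here, with no course term, so p-values of this comparison may be too small. WNT5A came nearest, higher by 0.65 in the shOTX2 line (SE 0.17, adjusted p = 0.0594), and it was called with median centring and with 1 probe set a gene. Without course 1 there were 11 calls, and 14.3% of all probe sets were called. Courses differed among themselves in several WNT genes. At 0 h LRP5 read 46.8 in course 1, 14.4 in course 2 and 17.8 in course 3, and DVL1 261, 72.5 and 136. A dimmer FZD3 probe set read 197, 423 and 380.4. Courses 2 and 3 lay on the same side of course 1 in each of these, as they did in the actin 3'/5' ratio, whose part was not tested. Within course 1 and the control course, which had like ratios, the difference between the arms from early to late was 2.37 for FZD1, 1.47 for LGR4 and -1.98 for FZD10, each called (limma adjusted p = 0.00594, 0.00931 and 0.0373). On these 8 arrays limma called only these 3 of the 79 probe sets, while 4.67% of all probe sets were called, 2.46% higher and 2.22% lower, and FZD5 differed by -1.38 (adjusted p = 0.0664).

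Other components of the pathway were taken from a list of 69 genes beyond those chosen by symbol, of which 56 had a kept probe set. At 96 h 24 were called higher and 7 lower on the brightest probe set, with a median log2 change of 0.34, where 20% of all probe sets were called higher and 16.8% lower, and 43.6% either way with 1 probe set a gene. Against the control course 11 differed upwards and 5 downwards, where 16.1% of all probe sets differed either way, and 22.5% with 1 probe set a gene. The cytoplasmic group had 10 of 17 higher and 0 lower, planar polarity 5 of 9 higher and 1 lower, the nuclear cofactors 4 of 15 higher and 3 lower, and the other receptors 1 of 6 higher and 2 lower.

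The largest rise was that of CELSR2, a cadherin of planar polarity, with 541 ± 44.7 at 96 h, against 70.1 ± 10.7 at 0 h (SD, n = 3 each), a change of 2.70 (SE 0.18, limma adjusted p = 4.24e-09). TNFRSF19, a receptor gene known as a WNT target, rose by 2.63, the Groucho co-repressor gene TLE1 by 2.41 and DACT1, whose product binds Dishevelled, by 2.24. TLE1 read 1845 ± 169 at 96 h, against 334.9 ± 48.7 at 0 h, and 414 against 288.5 in the control course. The largest falls were those of TLE2 (-1.37), the co-repressor complex gene TBL1X (-1.13), TLE3 (-0.93) and MYC (-0.71). For TLE2 the difference between the arms was -1.01, which was called only with the course as a block (limma adjusted p = 0.065 without and 0.00662 with it). TLE3 was also lower in the control course, with 62.7 at 96 h, against 137.7 at 0 h, and its difference between the arms was not called (adjusted p = 0.493).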

How the data were processed

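RNA of D425 cells was measured on Affymetrix U133 Plus 2.0 arrays, 1 per sample, 24 in all, grouped by arm and time into 12 groups from the labels. Deposited were linear signal intensities, which the authors computed with MAS5 and GCOS per the submitters' processing notes, with no version named. Trimming 2% at each end gave every array a mean intensity of 100.01, so the arrays had been scaled to a common target, which hides any shift shared by most genes, and the deposited table holds no detection calls. Precision is limited by how many arrays there are.

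Gene names came from the platform annotation, with symbols updated through RefSeq (GRCh38.p14). Of 54675 probe sets, 41097 had 1 symbol. The 62 control probe sets were left out, and a probe set was kept when its intensity exceeded the array median on at least 3 arrays. The deposited intensities were turned into log2(signal + 16), which understates changes of dim probe sets. limma 3.58.1 in R 4.3.3 was fitted to the 12 group means of all 24 arrays, with a mean-variance trend and 12 residual degrees of freedom. These come from the shOTX2 groups, and the single control arrays are assumed to vary like them. P-values were adjusted by Benjamini-Hochberg over all 33803 probe sets. All comparisons against 0 h share the same 0 h arrays. The fit was tested on simulated data with independent arrays and changes placed only at 96 h in the shOTX2 arm. That simulation covers neither correlated courses nor the comparisons between the arms.

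The genes named with full values are those with a kept probe set called at 96 h or between the arms (at most 20), with AXIN2, LEF1, NKD1, CTNNB1 and LGR5 always included. Others described in the text were picked by role after their values were seen. The genes, the list of other WNT components, the marker lists and the promoters shown were chosen with earlier results of these data known. One marker gene is not reported here.

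The labels number the independent courses, and this number pairs arrays across times. Deviations from the group means of same-course arrays correlated in all 45 pairs (r from 0.175 to 0.600 across probe sets, median 0.257, against -0.314 between courses). The deviations of the courses cancel at each time, so a positive value within courses forces a negative one between them. Alternatives were a pseudocount of 64, no filter, median centring, quantile normalization, the course as a block, no trend, only the arrays compared, 1 probe set a gene, each course left out, and course 1 with the control course only.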

Additional observations from a re-analysis of the deposited data

Results flagged for a closer look

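For 15 probe sets the change from early (0 and 8 h) to late arrays (48 and 96 h) differed between the shOTX2 arm and the control course by the test of the difference itself (limma, adjusted p under 0.05), where 16.1% of all probe sets did. Values are shOTX2 minus control on the log2(signal + 16) scale. Among receptors the difference was 2.66 and 0.78 for FZD1 on its brightest and on a dim probe set, 0.74 for FZD7 and 1.32 for LGR4. It was -1.74 for FZD10, -1.52 for FZD5 and -0.84 for FZD6. WNT5A, the only ligand, differed by 0.82. Inside the cell, the 4 probe sets of GSK3B differed by 0.83, 1.04, 0.63 and 1.05, a dim probe set of CTNNB1 by 0.75 and a probe set of TCF7L2 by 0.67. ZNRF3, the only feedback gene, differed by 1.11. The control course is a single course, so its own spread was not measured.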

How the results depend on the processing

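With the course as a replicate block, the WNT probe sets called numbered 5 at 24 h, 35 at 48 h, 42 at 96 h, 1 in the control course and 27 between the arms, against 3, 25, 32, 0 and 15 without it. The block changed no other count by over 1.5 times, and it cannot compare the arms at 0 and 8 h. Leaving out 1 course at a time gave 0 to 1 at 16 h, 0 to 3 at 24 h, 10 to 23 at 48 h, 15 to 35 at 96 h, 8 to 22 between the arms and 0 to 11 between the arms at 0 and 8 h. Median centring gave 16 at 48 h and 1 between the arms at 0 and 8 h. Without the trend there were 0 at 16 h and 1 at 24 h, and with only the arrays compared 0 at 16 h, 1 at 24 h and 15 at 48 h. That fit could not be made for the control course. With 1 probe set a gene, which tests 42 WNT probe sets in place of 79, there were 12 at 48 h, 14 at 96 h (43.6% of all genes), 9 between the arms and 1 between the arms at 0 and 8 h. With a pseudocount of 64, without the filter and with quantile normalization all 8 counts stayed within 1.5 times. Except where a share is printed, the counts by setting stand without the share of all probe sets called in that setting. A gain or loss of calls common to all genes is therefore not set apart from one of the WNT genes. The sign turned for CTNNB1 at 96 h with median centring (-0.024) and without course 2 (-0.056, up to 0.20 when other courses were left out), and for the NKD1 difference between the arms (-0.08) without course 3 (0.038, down to -0.19 when other courses were left out) and with course 1 and the control course only (0.15). In that last setting, with 4 residual degrees of freedom, the differences of FZD5, FZD6, FZD7, GSK3B, WNT5A and ZNRF3 lost their calls. Where no value above shows a cause, the cause was not tested. Dim probe sets limit what could be tested, since 79 of the 132 WNT probe sets passed the filter.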
